A study of Mus musculus with 4 samples.

Results

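The ATP-binding cassette (ABC) transporter family was examined in mouse ovarian cancer cells. Members were the protein-coding genes of the deposited table whose symbol begins with Abc, a subfamily letter from a to g and a number. This rule found 50 genes of 20674 protein-coding genes and of 23875 genes in all. RNA-seq was performed on 2 libraries of ID8-PW2 cells, a line derived from a peritoneal wall tumor of C57BL/6 mice after 2 in vivo passages, and on 2 libraries of ID8-P0 cells, the parental line without such passage. ID8 arose by transformation of C57BL/6 ovarian surface epithelium in culture, both lines are labelled wild type, and all cells were kept in suspension for 24 h on a surface that blocks attachment. By the paper, the parental ID8-P0 line expresses GFP and luciferase, so the label wild type does not mean free of added genes. ID8-PW2 is 1 passaged line, so it does not sample separate tumors. The 4 columns of counts in the table are headed only by numbers that no label uses, and they were given to neither line. For this reason no value per library and no difference between ID8-PW2 and ID8-P0 is given, and depth per library is unknown. The values are the authors' mean level of each gene over the libraries, as log2 CPM (the reads of a gene scaled to the total of its library), and the dispersion from edgeR.

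ABC proteins bind and hydrolyze ATP at paired nucleotide-binding domains. Most couple this to movement of lipids, drugs, conjugates, peptides or metals across a membrane, and transport is mainly out of the cytosol. The A subfamily and part of the G subfamily move lipids and sterols, the B and C subfamilies hold the classical drug efflux pumps, and the D subfamily serves peroxisomes. The E and F subfamilies lack membrane domains and act on ribosomes. In ovarian cancer the family is known for multidrug resistance.

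The members with high mean levels were conjugate exporters, ribosome-associated members and intracellular lipid transporters. Abcc1 (MRP1), which exports glutathione conjugates and many drugs, stood at 164 CPM. Abcf1, a factor of translation initiation, stood at 118 CPM and Abcc5 (MRP5), an exporter of cyclic nucleotides, at 106 CPM. In all, 28 members had a mean of at least 1 CPM, the level taken as expressed, 18 had at least 10 CPM and 3 at least 100 CPM. The mean joins both lines, so these counts need not hold in each line. The share expressed was 56.0% of members and 56.5% of all protein-coding genes. The median level of the expressed members was 20.7 CPM, and that of all expressed protein-coding genes was 18.3 CPM. Together the members held 0.103% of the CPM in the table, of which the gene Gm26924 alone held 29.7%. Rescaled without Gm26924, the CPM of each other gene would be 1.42 times as high. At the low end, Abcg1 (0.183 CPM) shared its value with 649 genes in all, itself included, and Abca15 lay at the lowest level of the table (0.163 CPM), where 4561 genes stood. Levels near that value cannot be told from no reads, since edgeR adds a small count before it takes the log.

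**Figure D1:**
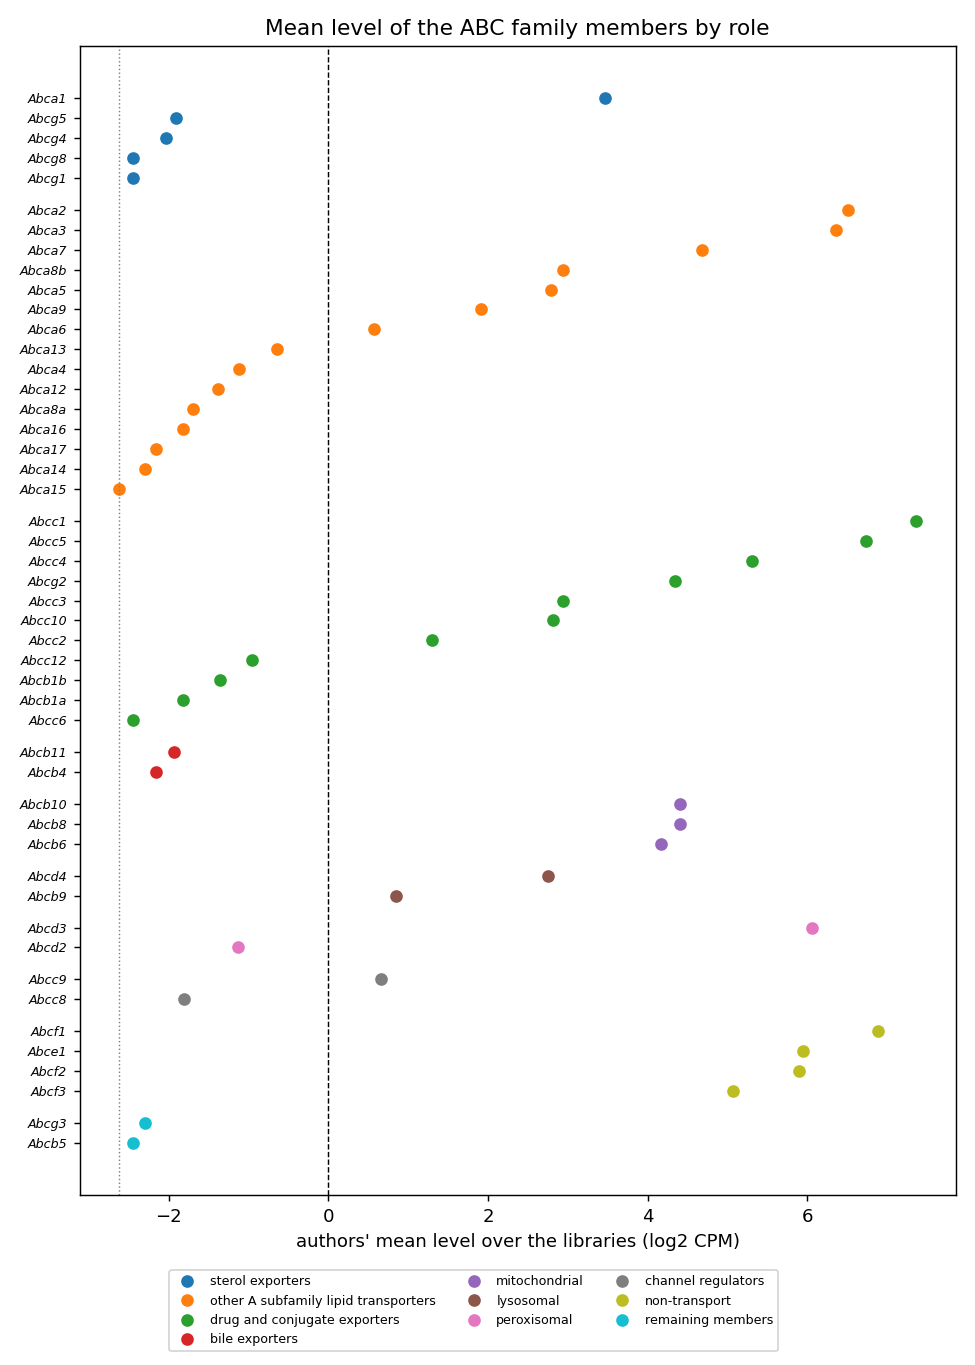
Mean level of each of the members described in the text (horizontal axis, the authors' mean over the libraries in log2 CPM), grouped and coloured by role. The dashed line marks 1 CPM and the dotted line the lowest level of the table; all 4 non-transport members and the mitochondrial members shown lie right of the dashed line, while 4 of the 5 sterol exporters lie left of it.

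Promoter sequence was set beside these levels, because expressed and unexpressed members sit side by side in this family. For 38 of the 50 members RefSeq gives a promoter on GRCm38.p6, and the 250 bases before the first listed start were read. Among the members with no entry were Abca6, Abcb8, Abcc1, Abcc3, Abcc6, Abcc8, Abcd2, Abcd4, Abcg1 and Abcg4. The sequences below are written 5′ to 3′ with each CG pair in capitals. They were chosen, after their values were seen, to show abundant members (Abcc5 and Abca3), the expressed sterol exporter (Abca1), a P-glycoprotein gene (Abcb1b), a bile exporter (Abcb11) and Abca17, which lies next to Abca3. The windows are chr16:20426395-20426644 on the minus strand for Abcc5, chr17:24351773-24352022 on the plus strand for Abca3, chr4:53159896-53160145 on the minus strand for Abca1, chr17:24351060-24351309 on the minus strand for Abca17, chr5:8797897-8798146 on the plus strand for Abcb1b and chr2:69342617-69342866 on the minus strand for Abcb11.
Abcc5: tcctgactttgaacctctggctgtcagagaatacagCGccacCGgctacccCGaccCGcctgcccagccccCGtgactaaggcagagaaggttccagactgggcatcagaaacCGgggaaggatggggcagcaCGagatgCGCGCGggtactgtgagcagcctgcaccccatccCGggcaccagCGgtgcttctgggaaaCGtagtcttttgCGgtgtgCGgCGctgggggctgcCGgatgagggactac
Abca3: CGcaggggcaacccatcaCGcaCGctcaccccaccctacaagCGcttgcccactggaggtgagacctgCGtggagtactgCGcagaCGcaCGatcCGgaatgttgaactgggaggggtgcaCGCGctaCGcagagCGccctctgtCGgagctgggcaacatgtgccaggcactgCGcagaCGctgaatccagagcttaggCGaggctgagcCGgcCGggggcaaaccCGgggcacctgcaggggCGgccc
Abca1: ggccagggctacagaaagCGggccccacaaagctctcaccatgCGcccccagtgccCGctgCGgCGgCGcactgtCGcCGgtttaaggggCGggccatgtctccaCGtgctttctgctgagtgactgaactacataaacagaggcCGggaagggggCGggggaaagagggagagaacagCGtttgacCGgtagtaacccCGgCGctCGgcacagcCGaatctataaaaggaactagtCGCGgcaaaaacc
Abca17: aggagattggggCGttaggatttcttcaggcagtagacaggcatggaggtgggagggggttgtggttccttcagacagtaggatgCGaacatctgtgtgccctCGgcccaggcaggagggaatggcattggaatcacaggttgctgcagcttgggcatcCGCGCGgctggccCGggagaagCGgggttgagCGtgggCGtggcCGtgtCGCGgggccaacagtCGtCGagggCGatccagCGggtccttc
Abcb1b: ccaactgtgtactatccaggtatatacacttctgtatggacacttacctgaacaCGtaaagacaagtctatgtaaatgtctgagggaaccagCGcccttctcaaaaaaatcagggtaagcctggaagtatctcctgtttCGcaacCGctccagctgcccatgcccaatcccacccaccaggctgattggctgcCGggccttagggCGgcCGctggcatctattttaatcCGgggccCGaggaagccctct
Abcb11: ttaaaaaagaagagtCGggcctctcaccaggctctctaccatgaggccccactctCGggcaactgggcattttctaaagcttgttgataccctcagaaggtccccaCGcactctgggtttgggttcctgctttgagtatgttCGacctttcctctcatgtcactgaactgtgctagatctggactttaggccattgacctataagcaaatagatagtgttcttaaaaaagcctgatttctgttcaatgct

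Members at 1 CPM or more carried more CG pairs before their start than members under 1 CPM. The median was 17 CG pairs (range 1 to 35, n = 21) in expressed members and 6 (range 0 to 18, n = 17) in the others. Abcc5 had 17, Abca3 21 and Abca1 20 CG pairs, whereas Abcb1b had 9 and Abcb11 4. The ranges overlapped. Abcg2 was expressed at 20.3 CPM with 3 CG pairs, Abcc2 at 2.46 CPM with 1, and Abca17, under 1 CPM, had 17. The same order was present in all protein-coding genes with a promoter entry, with a median of 16 CG pairs in 8772 expressed genes and 4 in 5979 others, so it is not particular to this family.

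**Figure D2:**
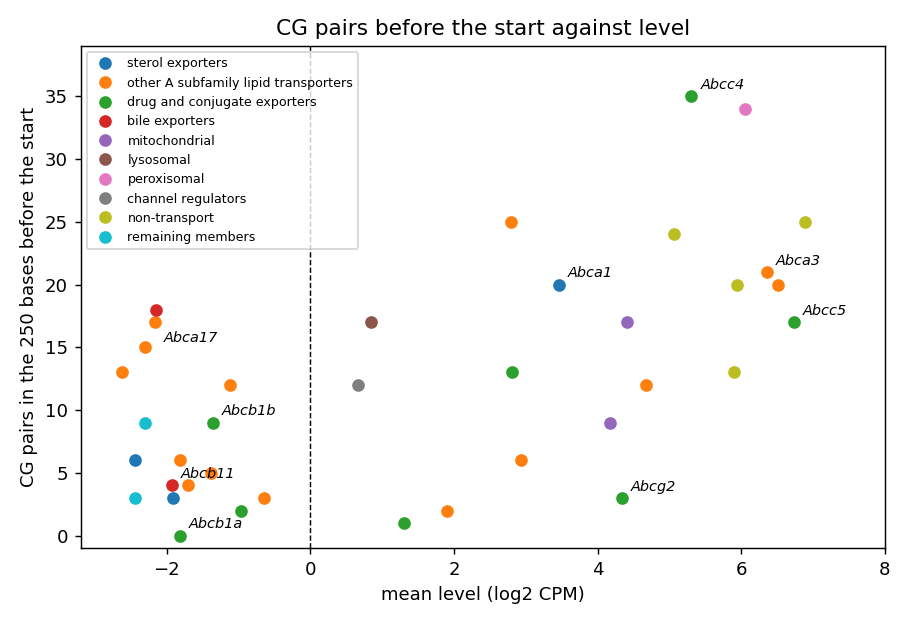
CG pairs in the 250 bases before the RefSeq start (vertical axis) against mean level (horizontal axis, log2 CPM) for the 38 members with an entry, coloured by role; the dashed line marks 1 CPM. Abcc4 reaches 35 CG pairs, and no member under 1 CPM has more than 18.

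Motifs were searched on both strands of the same windows. The GC box GGGCGG, bound by Sp1, was found in 16 of the 38 members (42.1%), against 32.9% of the 27025 genes in the promoter table. It was present in 13 of 21 expressed members (61.9%) and in 3 of 17 others (17.6%), and in 61.3% of expressed protein-coding genes and 25.6% of the others. Abca1 had 2 GC boxes, Abca3 had 1 and Abcc5 had 0. CCAAT was found in 12 of the 38 members (31.6%, against 34.5% of all genes), with 4 of 21 expressed members (19.0%) and 8 of 17 others (47.1%), where protein-coding genes had 37.0% and 33.9%. TATAAA was found in 5 members (13.2%, against 13.0%), 2 expressed and 3 not. The nuclear receptor motif AGGTCA was found in 5 members (13.2%, against 13.8%), 4 expressed and 1 not. Its direct repeat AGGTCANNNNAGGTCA contains it and is the consensus for the oxysterol receptor LXR. The exact repeat was found in 0 members and in 3 of the 27025 genes of the promoter table. A match this rare could hardly occur in 38 windows, and inexact copies were not searched. The 0 therefore does not show that a member such as Abca1 lacks an LXR element. These counts describe exact letters in 250 bases and say nothing about binding.

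Of the sterol exporters, Abca1 was the expressed member. Abca1 loads cellular cholesterol and phospholipid onto apolipoprotein A-I and is a target of LXR. It stood at 11.0 CPM with a biological coefficient of variation (BCV) of 10.7%. The BCV is the root of the authors' dispersion and estimates how far a gene varies between replicate libraries beyond counting error. The BCV need not include the difference between ID8-PW2 and ID8-P0. Abcg1, which passes sterol to HDL and is often coexpressed with Abca1 in macrophages, was at 0.183 CPM. Abcg4, its relative in brain, was at 0.245 CPM. Abcg5 and Abcg8, the partner subunits of the intestinal and hepatic sterol exporter, were at 0.265 and 0.184 CPM. The summed level of the 5 genes was 11.9 CPM, 1.14% of the family.

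Drug and conjugate exporters made up 33.5% of the CPM of the family, with 7 of 11 members expressed. Abcc4 (MRP4), which exports cyclic nucleotides and prostaglandins, stood at 39.6 CPM (BCV 8.70%), and Abcg2, the breast cancer resistance protein, at 20.3 CPM (BCV 10.3%). Abcc3 (MRP3) was at 7.69 CPM, Abcc10 (MRP7) at 7.03 CPM and Abcc2 (MRP2), the exporter of the bile canaliculus, at 2.46 CPM. The levels of these expressed pumps spanned 164 CPM for Abcc1 down to 2.46 CPM for Abcc2. Both genes of mouse P-glycoprotein, the pump best known from multidrug resistance, were under 1 CPM, with Abcb1a at 0.283 and Abcb1b at 0.389 CPM. These paralogs can share reads: 17.6% of the 50-base words of the Abcb1a transcripts occur in another member, and 16.3% in Abcb1b, so their split is uncertain. Abcc12 was at 0.513 CPM and Abcc6, a liver member mutated in pseudoxanthoma elasticum, at 0.183 CPM.

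Abundant members were also found among the peroxisomal and non-transport genes. Abcd3 (PMP70), which takes branched-chain and bile acid precursors into peroxisomes, stood at 66.4 CPM (BCV 6.23%). Abcd2, a peroxisomal fatty acid importer, was at 0.454 CPM. All 4 non-transport members were expressed: Abcf1 at 118 CPM, Abce1, which splits ribosomes after termination, at 61.7 CPM, Abcf2 at 59.6 CPM and Abcf3 at 33.6 CPM. They ranged in BCV from 6.23% to 9.74%. The miRNA gene Mir877 overlaps Abcf1 on the same strand in the table, the only such overlap among the members.

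The mitochondrial members Abcb10, Abcb8 and Abcb6 lay close together. Abcb10, which acts in heme synthesis, stood at 21.2 CPM, Abcb8 at 21.2 CPM and Abcb6, a porphyrin transporter, at 18.0 CPM. The lysosomal members were lower, with Abcd4, which releases cobalamin from lysosomes, at 6.75 CPM and the peptide transporter Abcb9 at 1.80 CPM. Abcb4 and Abcb11, which move phosphatidylcholine and bile salts into bile, were at 0.224 and 0.262 CPM. Of the sulfonylurea receptors, regulatory subunits of potassium channels, Abcc9 was at 1.58 CPM and Abcc8 at 0.285 CPM. Abcb5 and Abcg3 were at 0.184 and 0.203 CPM.

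The other A subfamily members spanned nearly the whole range, with 7 of 15 expressed. Abca2, a lipid transporter of late endosomes and lysosomes, stood at 91.5 CPM (BCV 6.27%), and Abca3, which loads surfactant phospholipid into lamellar bodies of alveolar cells, at 81.9 CPM (BCV 6.72%). Abca7, a phospholipid transporter linked to Alzheimer's disease, was at 25.7 CPM. Abca8b was at 7.66 CPM, Abca5 at 6.92 CPM, Abca9 at 3.75 CPM and Abca6 at 1.48 CPM. The 8 others lay between 0.163 CPM (Abca15) and 0.641 CPM (Abca13), among them Abca4, the retinoid flippase of photoreceptors (0.462 CPM), and Abca12, the lipid transporter of keratinocytes (0.382 CPM).

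Levels were compared between genes per kb of exon, on the lengths of GENCODE release M21, since expressed members are long (median 6672.5 bases, against 4589.5 in all expressed protein-coding genes). On this scale Abcf1 (26.8 CPM per kb) and Abcf2 (23.2 CPM per kb) led. They were followed by Abca2 (11.0), Abcc1 (10.9), Abce1 (10.3), Abcd3 (10.1), Abcc5 (9.97), Abcf3 (9.43) and Abca3 (8.74 CPM per kb), and each step from Abca2 to Abca3 was smaller than the combined BCV of its 2 genes. This closeness was lost by the longest transcript, where Abcc1 stood at 24.2, Abcd3 at 19.0, Abcc5 at 18.3 and Abce1 at 16.3 CPM per kb, and Abca3 at 12.6, Abca2 at 11.4 and Abcf3 at 10.9 CPM per kb. Of the 27 steps between neighbours in the order of the 28 expressed members, 14 were smaller than this spread. Abca1 came to 1.06 CPM per kb, and its step to Abca8b (1.03 CPM per kb) was smaller than the combined BCV. The BCV is a spread between libraries and not the error of a mean level. These steps therefore do not test whether the levels of 2 genes differ. The median of the expressed members was 3.59 CPM per kb and that of all expressed protein-coding genes 4.08 CPM per kb. The non-transport members held 42.8% of the family's summed level per kb, the drug and conjugate exporters 19.9% and the sterol exporters 0.788%. Merged exons can include retained introns. With the longest transcript as the length, Abcc1 lay above Abcf2 (23.2) and below Abcf1 (37.4 CPM per kb), and the drug and conjugate exporters summed to 56.4 in place of 32.4 CPM per kb. The lysosomal members summed to 2.32 in place of 1.16 CPM per kb.

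**Figure D3:**
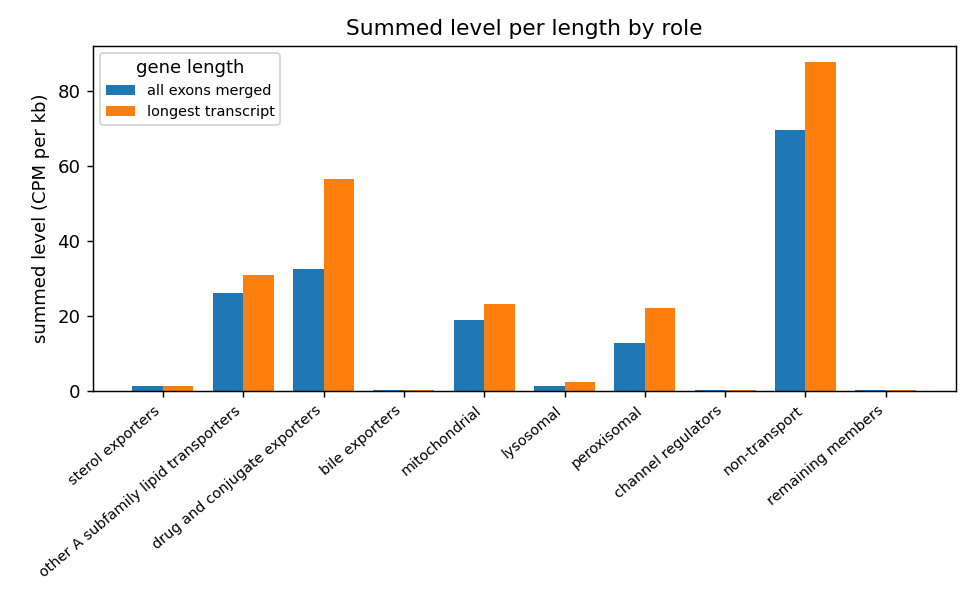
Summed mean level per kb (vertical axis, CPM per kb) of the members of each role (horizontal axis), with length taken as all exons merged (blue) or as the longest transcript (orange). The non-transport members stand at 69.7 and 87.7 CPM per kb, the highest of the roles by both lengths, and the sterol exporters at 1.28 and 1.33 CPM per kb.

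The spread of the members followed their level. Among expressed members the BCV ran from 5.99% (Abcc1) to 30.2% (Abcb9), with a median of 9.52%, against 9.72% in all expressed protein-coding genes. Set beside protein-coding genes within 0.5 log2 CPM, 12 of the 28 lay above the median BCV of that level, 8 above its upper quartile and 10 below its lower quartile. Abca9 (BCV 24.8%, against a median of 16.7% at its level) and Abcb9 (30.2%, against 20.3%) had the largest excess, at 1.49 and 1.48 times the median. Of the members under 1 CPM, 6 carried the highest dispersion of the table (BCV 73.6%), a value shared by 3638 genes.

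**Figure D4:**
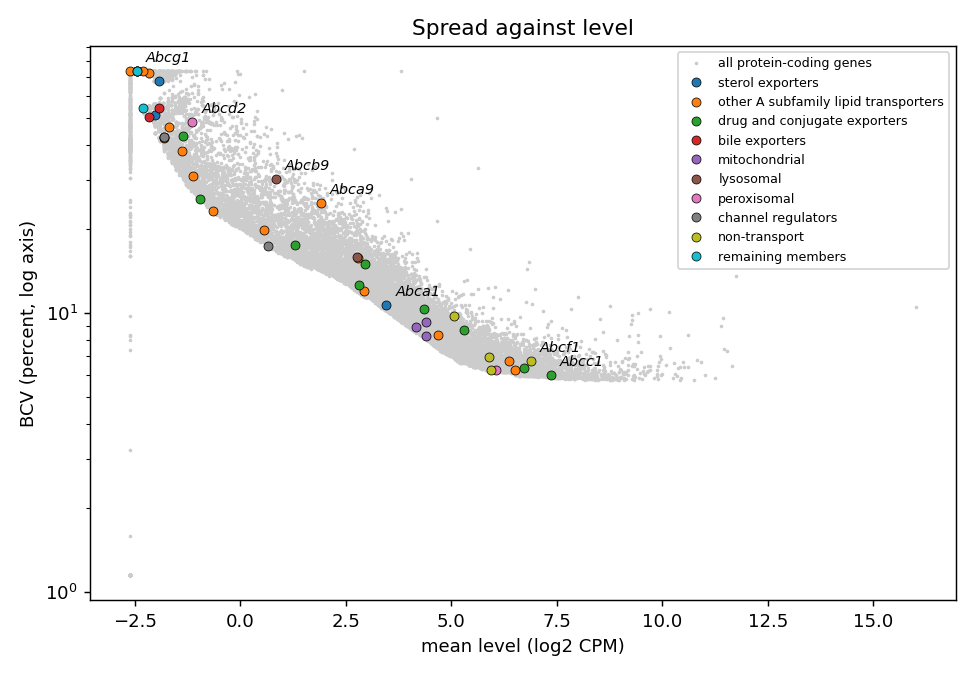
BCV (vertical axis, percent, log axis) against mean level (horizontal axis, log2 CPM) for all protein-coding genes (grey) and for the members described in the text, coloured by role. The members lie within the cloud of the other genes, with Abcb9 and Abca9 in its upper part.

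Several members are neighbours in the genome. Each member was paired only with the next member along its chromosome, and 13 such pairs lay within 200.0 kb. Pairs with another member between them, such as Abca9 and Abca5 (3.75 and 6.92 CPM), were not counted. Of the 13 pairs, 7 differed by 1 log2 unit or more in level and 6 by less, and in each of the 6 both genes were under 1 CPM. The genes of those 6 pairs lay near the lowest level of the table, where levels can differ little, so their closeness is not informative. Positions are those of the table; 46 of the 50 members share a start or end with GENCODE M21 on GRCm38. Abca3 and Abca17 face away from each other on chromosome 17 with 920 bases between them, and stood at 81.9 and 0.224 CPM. On chromosome 11, Abca8b, Abca8a, Abca9, Abca6 and Abca5 follow one another on the same strand, at 7.66, 0.308, 3.75, 1.48 and 6.92 CPM. Abca8a and Abca8b are close paralogs, and 1.64% of the 50-base words of Abca8a occur in Abca8b. On chromosome 5, the whole run of Abcb1a, Abcb1b and Abcb4 was under 1 CPM (0.283, 0.389 and 0.224 CPM), as was that of Abca14, Abca15 and Abca16 on chromosome 7 (0.203, 0.163 and 0.283 CPM).

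The label of the cells was checked against marker genes. Their means join both lines, and the level in each line is not given here. The epithelial keratins Krt8, Krt18 and Krt19 stood at 435, 501 and 938 CPM, Krt7 at 1.91 CPM, and Wt1, a marker of ovarian surface epithelium and mesothelium, at 153 CPM, while Epcam (4.12 CPM) and Cdh1 (4.72 CPM) were low. The mesothelial genes Msln, Upk3b and Lrrn4 were at 101, 157 and 5.75 CPM. Of the 9 immune markers measured, 3 were expressed, namely Cd68 (13.0 CPM), Cd14 (3.27 CPM) and Csf1r (1.88 CPM), while Ptprc, the leukocyte common antigen, was at 0.224 CPM and Lyz2 at the lowest level of the table. Of 4 endothelial markers 1 was expressed (Pecam1, 4.62 CPM). Of 5 fibroblast markers 3 were, among them Dcn at 320 CPM, with Lum at the lowest level of the table. These values matter for Abca1, which macrophages also express; the part of such cells in its level was not tested.

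Genes that work with the family were examined from lists of their own. Of 17 genes of LXR and cholesterol efflux, 13 were expressed. Nr1h2, which encodes LXRβ, was at 27.3 CPM and Nr1h3, which encodes LXRα, at 2.10 CPM. Npc2, the lysosomal sterol carrier, was the most abundant of the list (182 CPM). Of the other genes in this list, Lpl stood at 179.7 CPM, Srebf1 at 65.3, Lpcat3 at 50.1, Arl4c at 18.4 and Pltp at 17.5 CPM. Apoe was at 1.27 CPM (BCV 50.5%), Smpdl3a at 0.204 CPM and Mylip, a ubiquitin ligase, at 0.203 CPM. Apoa1, the acceptor of Abca1 lipid, was at 0.380 CPM. Of 18 xenobiotic sensors and conjugating partners, 14 were expressed, led by Ezr, a membrane linker (399 CPM), and Nfe2l2, which encodes NRF2 (230 CPM). Nr1i2, the pregnane X receptor that induces P-glycoprotein, was at 1.09 CPM.

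Partner genes of the organelle members were nearly all expressed: 21 of 23 for peroxisomes, 14 of 14 for mitochondrial iron and heme, and 11 of 12 for ribosome recycling and Gcn2. Etf1, the release factor that acts before Abce1, stood at 202 CPM. The channel pores Kcnj8 and Kcnj11, which pair with the sulfonylurea receptors, were at 0.263 and 0.183 CPM. ABC genes whose symbols do not follow the pattern were Tap2 at 19.5 CPM and Tap1 at 7.40 CPM, the peptide transporter of antigen presentation, and the chloride channel gene Cftr at 7.21 CPM. For comparison, all protein-coding genes were expressed in 56.5% of cases. Apart from Nr1h2, Nr1h3, Nr1i2, Tap1, Tap2 and Cftr, the partner genes named here were chosen after their values were seen.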

How the data were processed

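RNA-seq was performed on 2 ID8-PW2 and 2 ID8-P0 libraries. The large RNA fraction was fragmented, and ribosomal RNA was reduced with a duplex-specific nuclease, which also acts on other abundant RNA. By the paper and the submitters' processing notes, the authors used CASAVA 1.8.2, Trimmomatic 0.22, TopHat2 2.0.6, Bowtie2 2.0.2, a custom script for stranded counts per gene, and edgeR 3.20.8; the notes name a human build, while the identifiers are mouse. The mean log2 CPM per gene over all libraries is the authors' value, as deposited. The dispersion is a score per gene that the authors obtained with edgeR, as deposited. How libraries were grouped for it is not given in the sources used here. The BCV is therefore not read as the spread over all 4 libraries. The table also holds the authors' fold change, log2 fold change, p-value, FDR and direction, which were not used, and 4 count columns that no label matches, which were used in no step. The edgeR test on counts that had been planned was therefore not made, and no replicate error of a group and no p-value is given.

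Levels were put back on the CPM scale and divided by the merged exon length from GENCODE M21 (all 50 members matched by identifier). A mean of 1 CPM made a gene expressed. The spreads of a pair of genes were combined as the root of the summed squares of the BCVs. RefSeq promoters were matched by symbol, the first listed start being used. Python 3.11.15, numpy 2.4.6 and pandas 2.3.3 were used, and the functions for length, CG pairs and motifs were tested on simulated data. Some genes are not reported here by name; counts and sums include them. The rule was to account for all members and to name from each partner list the 2 genes per direction with the smallest adjusted p, and Nr1h2, Nr1h3, Nr1i2, Tap1, Tap2 and Cftr; the part that needs a test could not be applied. Members and lists were chosen with earlier results of these data known.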

Additional observations from a re-analysis of the deposited data

How the results depend on the processing

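The alternatives that use a test (DESeq2, other normalizations, no filter, the likelihood ratio test, other thresholds and leaving out each library) need counts assigned to libraries and were not run. No paired analysis was possible because the columns of counts carry no replicate number or name that the labels use. Alternatives chosen after seeing the data concern levels and lengths. The number of expressed members was 28 at 1 CPM, 30 at 0.5 CPM, 25 at 2 CPM and 28 when CPM was rescaled without Gm26924, which held 29.7% of the CPM in the table. The median level of expressed members was 3.59 CPM per kb by merged exons, 4.30 by the longest transcript and 4.37 by the exons of the basic annotation. The summed level per kb of the 10 roles was 1.04 to 1.99 times as high by the longest transcript and 1.03 to 2.72 times by the basic annotation, and over 1.5 times in 3 roles by each length. Of the 10 members with the highest level per kb, 9 were shared with the longest transcript and 9 with the basic annotation. Of the 22 members under 1 CPM, those near the lowest level of the table could not be told from no reads, and depth per library is unknown.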
